A study of Drosophila melanogaster with 15 samples.

Results

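The 43 probe sets described here carried a higher signal in pri mutant embryos than in either wt or svb mutant embryos of Drosophila melanogaster. In 31 of them the 8-fold size of the rise rested on wt values read under a signal of 32, which stood in for background. The 43 were chosen by their measured signals from the 18769 probe sets of the array that are not controls. The rule asked for a mean of at least 5 on the log2 scale in pri embryos (a signal of 32) and a pri mean at least 3 above the wt mean on that scale, which is 8-fold. It further asked that all 5 pri arrays lie above all 10 other arrays, that the svb mean lie within 1 of the wt mean, and that the svb and wt arrays overlap in range. Since the rule used the signals of all 3 genotypes, the levels and differences of these probe sets are given as a description, with no test.

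RNA came from whole embryos aged 13 to 15 h, 200 per sample, with 5 independent samples for each of 3 genotypes, and each sample was hybridised to its own Affymetrix array of the Drosophila genome. The mutant embryos were labelled svb -/- (allele svbR9) and pri -/- (allele pri1), came from stocks kept over GFP balancers, and were selected by hand. All embryos were laid in a short window and aged at a lower temperature. Neither the strain of the wt embryos nor the sex of any embryo was stated, and the part of either in the results was not tested. Since whole embryos were used, each signal averages over all tissues.

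shavenbaby (svb) encodes a zinc finger transcription factor that drives the formation of trichomes, the actin-rich extensions of epidermal cells. polished rice (pri, also called tarsal-less) encodes very short peptides that lead to the removal of the N-terminal part of the Svb protein, which turns it from a repressor into an activator. Both mutants therefore lack the active form of Svb, whereas embryos without pri still make the long repressor form. pri also acts in leg segmentation and in the tracheal system, and its expression is linked to ecdysone, the insect moulting hormone.

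No table used here pairs these probe sets with genes, so that each is given by the ID it has on the array and no function, position or sequence is stated for it. For the same reason, the levels of svb and pri, and of markers of muscle, neurons, gut, fat body and other tissues, were not analysed here. By the endings of their IDs, 37 were of the plain type (_at), designed to match a single transcript or gene, 2 were of the _a_at type, 4 of the _s_at type and 0 of the _x_at type. The plain type makes up 81.0% of the array. The 4 _s_at probe sets can match several transcripts, and their signals are less certain in source.

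Each condition of the rule was first applied in turn. Of the 18769 probe sets, 8114 had a pri mean of at least 5, and 63 of these, 0.776%, were at least 8-fold above wt. Complete separation was itself common, since in 992 of the 8114 probe sets, 12.2%, all 5 pri arrays lay above all 10 others. Of the 63, the order of the arrays removed 4 and the limit on svb removed 16, of which 7 were higher and 9 were lower in svb than in wt. The overlap of the svb and wt arrays removed no further probe set. The mirror image of the rule, for signals lowered at least 8-fold in pri embryos alone, found 16.

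**Figure D1:**
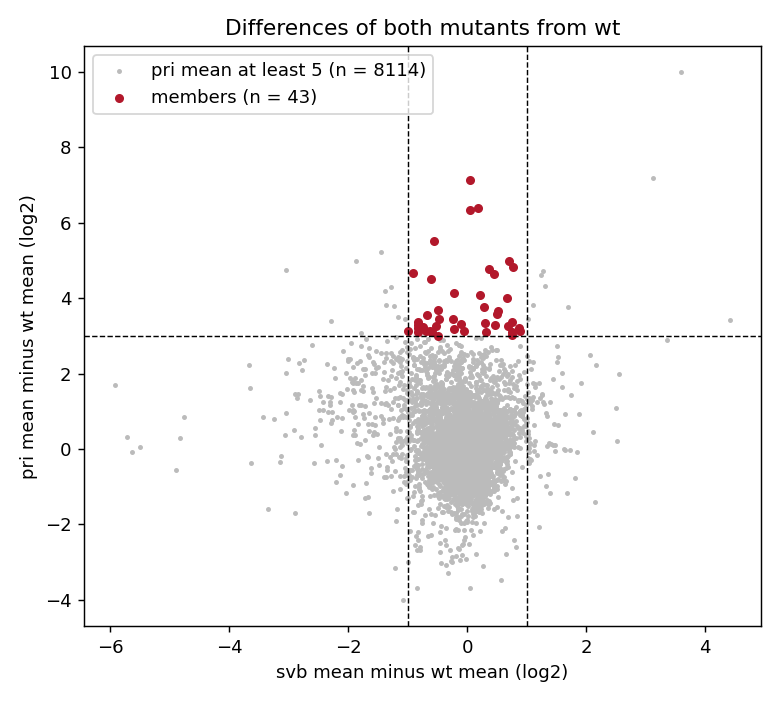
Difference of the svb mean from the wt mean (horizontal axis) and of the pri mean from the wt mean (vertical axis), both as log2 signal, for the 8114 probe sets with a pri mean of at least 5; dashed lines mark the limits of the rule. The 43 chosen probe sets (dark points) lie above 3 on the vertical axis and between -1 and 1 on the horizontal axis, and the grey points above 3 outside these lines are probe sets whose svb mean lay at least 1 from the wt mean.

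The label of an 8-fold rise in pri embryos alone was then set against the signals. The difference of the pri mean from the wt mean ranged from 3.00 to 7.13 on the log2 scale, with a median of 3.37. In 25 of the 43 probe sets it lay under 3.5, close to the limit, in 12 it was at least 4 and in 3 at least 6. The difference of pri from svb had a median of 3.81 and ranged from 2.24 to 7.09. Over the 8631 probe sets bright enough to be tested, the median was -0.04 for pri minus wt and -0.03 for pri minus svb. Over the 582 with a wt mean under 5 and a pri mean of at least 5, it was 1.36 and 1.46. Since the rule set a lower limit for the 43, their larger differences follow from it and are no finding. These differences are relative to signals that had been scaled to a common trimmed mean, and the median log2 signal over all probe sets was itself 0.20 higher on the pri arrays than on the wt arrays.

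In wt embryos most of these probe sets were dim. The wt mean signal ranged from 0.572 to 139 with a median of 7.30, and the svb mean signal from 0.695 to 185 with a median of 9.78. In 36 of the 43, the wt mean lay under 5 on the log2 scale, and in 28 all 10 wt and svb arrays were under a signal of 32. In pri embryos the mean signal ranged from 34.0 to 1215 with a median of 106, with 9 probe sets at 500 or above and 20 under 100. In 12 probe sets at least 1 pri array was under 32. Because detection calls were not used, the signal of 32 stood in for background, and folds against a dimmer group are lower bounds set against it.

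The bound on the ratio of the pri signal to the wt level ranged from 1.03 to 31.2, with a median of 2.81. The bound was at least 8-fold in 12 of the 43 probe sets, at least 4-fold in 18, and at least 2-fold in 26. In the other 17 it was under 2-fold. In the 31 probe sets with a bound under 8-fold, the 8-fold difference rested on how far below a signal of 32 the wt value was read. In whole embryos, more cells with the RNA and more RNA per cell cannot be told apart.

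**Figure D2:**
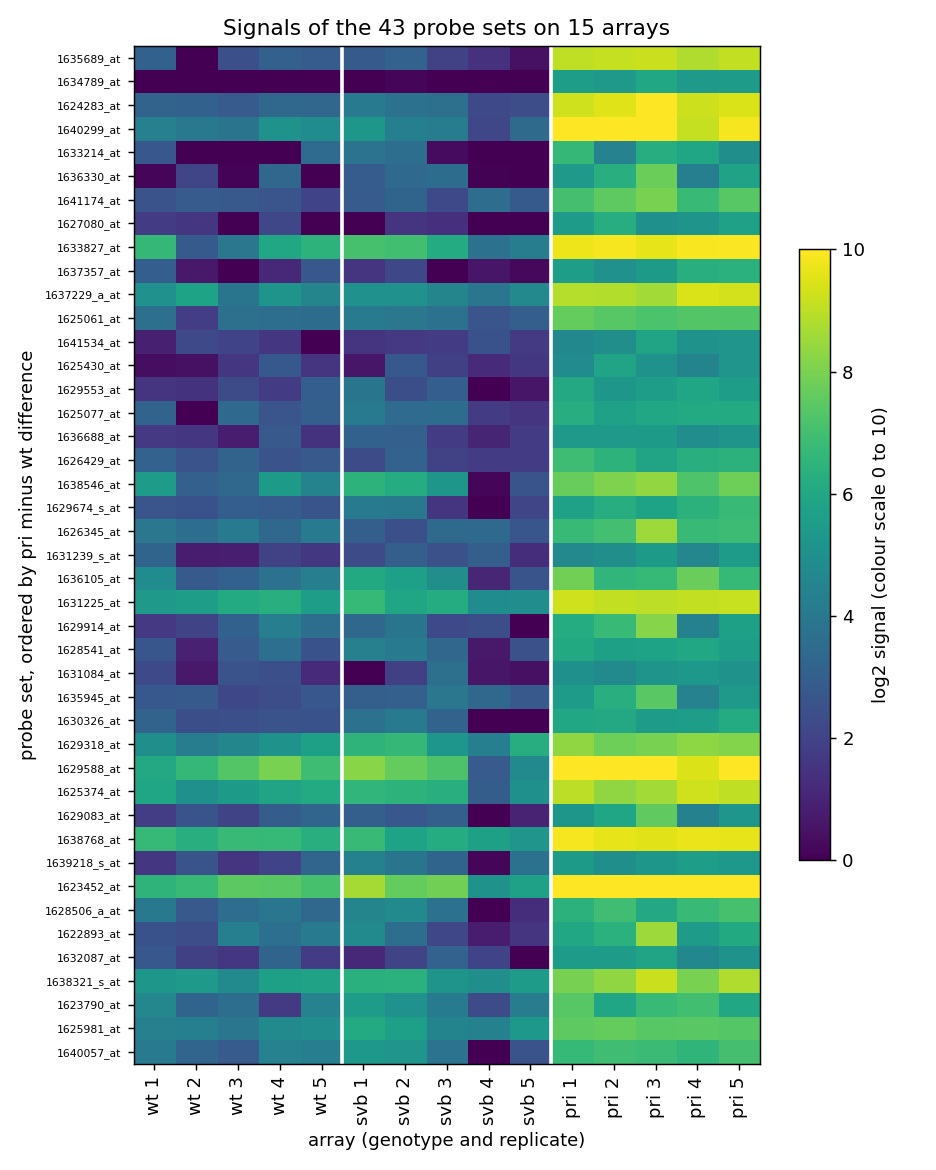
log2 signal of the 43 probe sets (rows, ordered by the difference of pri from wt) on the 15 arrays (columns, in 3 blocks of 5 for wt, svb and pri); values under 0 or over 10 are drawn in the end colours. The pri block is brighter than the other blocks in every row, and within the svb block the columns of svb 4 and svb 5 are darker than those of svb 1 and svb 2 in most rows.

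Probe set 1635689_at had the largest difference. Its signals were 8.66, 0.252, 5.4, 8.48 and 7.61 in the 5 wt samples, 7.14, 8.74, 3.89, 2.68 and 1.36 in the 5 svb samples, and 530, 553, 592, 444 and 537 in the 5 pri samples. The pri samples formed a narrow group, and the lowest of them was 50.8 times the highest of the 10 others. The difference from wt was 7.13 ± 0.99 on the log2 scale (SE, n = 5 and 5), with the wt 2 value far below the other 4 wt values, and was 6.16 without wt 2. Against a signal of 32, the pri level was at least 16.5-fold higher.

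1634789_at combined a large ratio with a low level. It read 0.663, 0.605, 0.595, 0.487 and 0.511 in wt, 0.781, 1.1, 0.651, 0.63 and 0.312 in svb, and 48.8, 41.9, 63.1, 42.8 and 46.6 in pri embryos. The wt and svb samples overlapped near the lower end of the scale, and the pri samples were above 32, with pri 3 the highest at 63.1. The difference from wt was 6.40 ± 0.13 (SE), the most even of the 3 differences above 6, yet the bound was only 1.5-fold.

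1624283_at and 1640299_at were bright in pri embryos and dim elsewhere. For 1624283_at the wt signals were 9.16, 8.68, 7.35, 10.2 and 9.85, the svb signals 17.2, 13.6, 13.0, 4.57 and 5.09, and the pri signals 623, 732, 1095, 596 and 698. Its svb samples fell on both sides of the wt samples, with svb 1, svb 2 and svb 3 above and svb 4 and svb 5 below all of them. Its pri level was at least 22.8-fold above a signal of 32, with a difference from wt of 6.34 ± 0.18 (SE).

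For 1640299_at the signals were 20.7, 16.5, 14.5, 34.4 and 29.0 in wt, 39.4, 20.2, 18.6, 4.33 and 10.9 in svb, and 1025, 1219, 1537, 556 and 934 in pri embryos. Here too svb 1 was the highest and svb 4 and svb 5 the lowest of the 10 samples without the rise. The difference from wt was 5.52 ± 0.34 (SE), and the bound of 31.2-fold was the highest of the 43 probe sets.

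The next 2 probe sets in rank varied widely between samples. 1633214_at read 6.52, 0.791, 0.300, 0.574 and 11.2 in wt, 13.97, 12.3, 1.23, 0.699 and 0.762 in svb, and 102, 21.5, 74.9, 60.9 and 31.9 in pri embryos. Its difference of 4.99 ± 1.11 (SE) had the largest error of all 43, and the lowest pri sample was 1.54 times the highest other sample. The difference was 4.39 without wt 3 and 5.69 without wt 5. 1636330_at read 1.09, 4.26, 1.06, 9.74 and 0.899 in wt, 7.5, 10.7, 11.7, 1.04 and 0.649 in svb, and 41.7, 79.6, 215, 19.97 and 55.0 in pri embryos. Its difference was 4.82 ± 0.89 (SE), with pri 3 well above and pri 4 well below the other pri samples.

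1641174_at was steady in the embryos without the rise, at 5.88, 7.26, 6.87, 6.21 and 4.01 in wt and 7.31, 9.31, 4.57, 11.9 and 7.21 in svb, against 132, 185, 252, 110 and 170 in pri embryos. It was an exception among the leading probe sets in that svb 4 was its highest svb sample. Its difference was 4.78 ± 0.26 (SE), and its bound 5.09-fold. 1627080_at and 1637357_at stayed under a signal of 10 in every wt and svb sample and averaged 48.5 ± 17.1 and 57.8 ± 22.8 (SD, n = 5) in pri embryos. Their differences from wt of 4.66 ± 0.63 and 4.5 ± 0.80 (SE) thus stood beside bounds of 1.45-fold and 1.69-fold, and that of 1637357_at was 3.89 without wt 3.

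1633827_at was the one probe set among the first 10 with a wt mean above 5 on the log2 scale. It read 100.2, 7.13, 15.7, 63.1 and 89.3 in wt, 136, 124, 71.1, 13.3 and 18.6 in svb, and 869, 919, 783, 952 and 983 in pri embryos. The pri samples were nearly equal, whereas the wt and svb samples were each widely spread, with wt 2, wt 3, svb 4 and svb 5 at the lower end. Its pri and wt means on the log2 scale differed by 4.63 ± 0.76 (SE), which is 24.7-fold. The difference was 4.04 without wt 2 and 3.99 with wt signals under 32 set to 32.

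**Figure D3:**
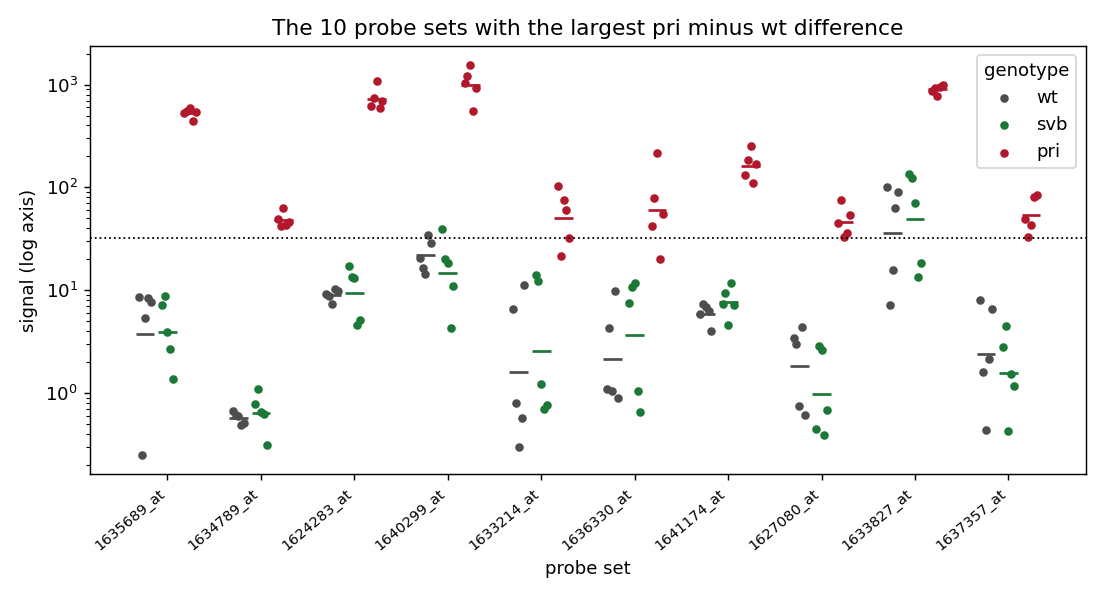
Signal (log axis) of the 10 probe sets with the largest difference of pri from wt; points are the 5 samples of wt (grey), svb (green) and pri (red), bars are means on the log2 scale, and the dotted line is the signal of 32 that stood in for background. All red points lie above all others of the same probe set, and 1633827_at alone has wt and svb points above the dotted line in several samples.

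Of the 43, 7 probe sets had a wt mean of at least 5, and in these 7 the svb mean was also at least 5, so that their folds are ratios of means above the stand-in for background. Single samples still lay under a signal of 32 in some of them, and all 5 wt samples were at 32 or above in 5 of the 7 and all 10 wt and svb samples in 2. They were picked out after their values were seen, and beside 1633827_at they are 1631225_at, 1629588_at, 1625374_at, 1638768_at, 1623452_at and 1638321_s_at. The most even was 1638768_at, with 104, 79.2, 108, 103 and 77.2 in wt, 106, 55.4, 73.2, 51.1 and 37.0 in svb, and 931, 782, 758, 825 and 787 in pri embryos. Its difference of 3.13 ± 0.12 (SE) had the smallest error of the 43, and its pri samples were all at least 7.02 times the highest other sample.

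1631225_at was even in pri embryos and more spread in svb embryos, averaging 57.5 ± 16.3 in wt embryos, 58.7 ± 31.7 in svb embryos and 557 ± 36.9 in pri embryos (SD, n = 5), a difference of 3.32 ± 0.18 (SE). The brightest of these probe sets were 1629588_at and 1623452_at, which averaged 1215 ± 424 and 1159 ± 94.4 (SD) in pri embryos. For 1623452_at the svb samples read 401, 199, 236, 35.4 and 53.1, a range that held all wt samples, which lay between 90.7 and 181. Its difference of pri from wt was 3.12 ± 0.20 (SE).

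At the limit of the rule the values ran on without a gap. The 3 probe sets nearest inside it were 1640057_at, 1625981_at and 1623790_at, with differences of 3.00, 3.02 and 3.09. The 3 nearest outside it that met all other conditions were 1639532_at, 1630670_at and 1628254_at, with 2.95, 2.95 and 2.92. 1640057_at averaged 15.2 ± 6.37 in wt embryos, 19.6 ± 18.0 in svb embryos and 113 ± 15.2 in pri embryos (SD, n = 5), whereas the excluded 1630670_at was brighter in each genotype, at 257 ± 61.5, 377 ± 253 and 1949 ± 239. The number of members is therefore a property of where the limit was set.

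The separation of the pri samples also differed between probe sets. The lowest pri sample was between 1.07 and 50.8 times the highest of the 10 others, with a median of 2.76, and the ratio was at least 2 in 34 probe sets and at least 8 in 6. As the background to these differences, limma called 1576 of all 8631 probe sets tested, 18.3%, higher in pri than in wt (adjusted p under 0.05) and 1990 lower, a split that became 1047 higher and 2328 lower once every array had been set to the same median.

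The second part of the label, that the rise was found in pri embryos alone, was next examined in the svb samples. The svb mean was lower than the wt mean in 22 and higher in 21 of the 43 probe sets, with a median difference of -0.05 and a range from -0.99 to 0.89 that the rule bounded. In 19 it lay within 0.5 of the wt mean. The mean, however, covered samples that differed in a common direction. The median deviation of the 43 probe sets from their svb group mean was 1.01 in svb 1, 0.91 in svb 2, 0.30 in svb 3, -1.13 in svb 4 and -0.71 in svb 5 on the log2 scale. In the wt samples it ranged from -0.31 in wt 2 to 0.29 in wt 4, and in the pri samples from -0.13 to 0.03.

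In terms of signal, the median over the 43 probe sets was 17.3 and 14.7 in svb 1 and svb 2, 11.5 in svb 3, and 3.37 and 5.09 in svb 4 and svb 5. For comparison, the wt samples ranged from 6.03 to 9.85 and the pri samples from 85.1 to 142. Thus svb 1, svb 2 and svb 3 lay above every wt sample and svb 4 and svb 5 below every wt sample by this median, while all remained far under the pri samples. svb 4 was the lowest svb sample in 27 of the 43 probe sets (62.8%) and svb 1 the highest in 23 (53.5%). Over all 8631 probe sets tested these shares were 33.8% and 16.8%. Over the 582 with a wt mean under 5 and a pri mean of at least 5 they were 57.6% and 44.0%. In 23 of the 43 (53.5%) svb 1 and svb 2 were both above all 5 wt samples. In 18 (41.9%) svb 4 and svb 5 were both below all of them. For these orders the shares were 11.9% and 11.6% over all tested, and 31.4% and 28.4% over the 582.

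This order of the svb samples was not confined to the chosen probe sets. svb 1 and svb 2 were both above svb 4 and svb 5 in 34 of the 43, against 19.3% of the 8631 probe sets tested and 61% of the 582 that were dim in wt (mean under 5) and bright in pri embryos (mean at least 5), of which 36 are members. The opposite order was seen in 1 of the 43, against 26.3% of all probe sets tested and 5.15% of the 582. Over all tested, the opposite order was thus the more frequent of these 2. Among the 16 probe sets lowered at least 8-fold in pri embryos alone, svb 1 and svb 2 were both above svb 4 and svb 5 in 1. Membership had been decided with the svb samples, so the shares are given without a test.

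**Figure D4:**
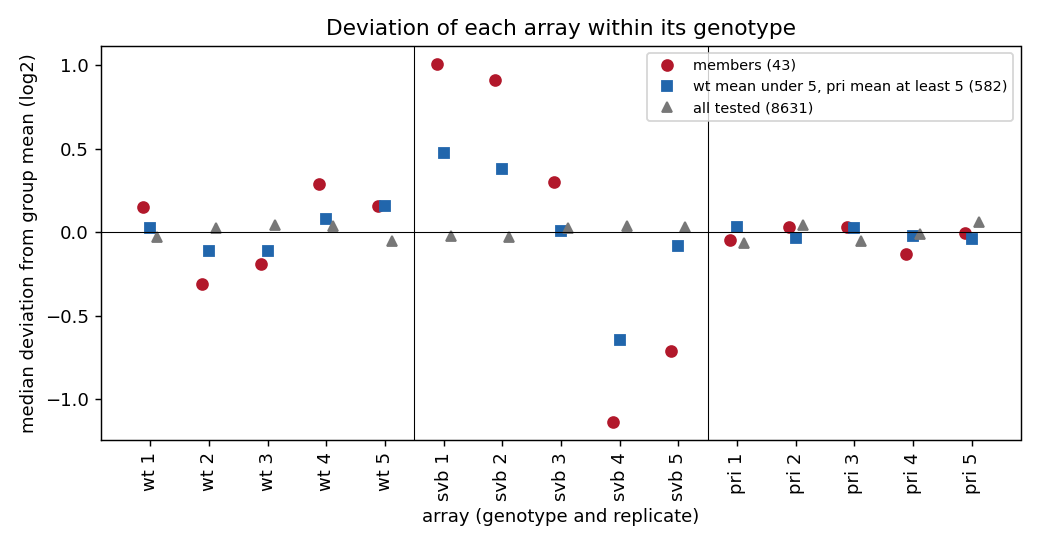
Median deviation of each array from the mean of its genotype (log2 signal), for the 43 chosen probe sets (circles), the 582 probe sets dim in wt and bright in pri embryos (squares) and all 8631 tested (triangles). The circles run from 1.01 in svb 1 to -1.13 in svb 4, the squares follow the same order with a smaller range, and the triangles stay near 0 on all 15 arrays.

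The spread within each genotype followed the same pattern. The median SD of the log2 signal over the 43 probe sets was 1.23 among the svb samples, 0.71 among the wt samples and 0.40 among the pri samples. Over all probe sets tested it was 0.33, 0.27 and 0.27, and over those dim in wt and bright in pri embryos 0.63, 0.42 and 0.33. The larger SDs of the 43 in wt and svb thus stood beside their lower levels in these genotypes.

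The svb 4 sample stood apart from the rest on the array as a whole. It had the lowest median signal, 9.49 against 11.99 to 17.0 on the other arrays, and lay at -86.9 on the first principal component, which held 57.3% of the variance, where the other svb samples were between -45.5 and -8.52, the wt samples between -28.0 and -10.5, and the pri samples between 53.0 and 66.9. Its part in the results was examined by leaving it out. Without svb 4 the median difference of svb from wt over the 43 probe sets changed from -0.05 to 0.37, with a range from -0.93 to 1.62. Then 30 of the 43 were higher in svb than in wt, and in 7 the difference was at least 1, outside the limit of the rule. These counts were not made over other probe sets. The median deviation of svb 4 was -1.13 over the 43, -0.65 over the 582 dim in wt and bright in pri embryos, and 0.04 over all tested. The change without svb 4 can therefore not be read as particular to the 43. The ratio of 3' to 5' signals of the GAPDH control, a measure of RNA integrity, was 2.38 to 2.63 in svb, 2.44 to 2.96 in pri and 2.49 to 3.84 in wt samples, and svb 4 at 2.46 was within the range of the other svb samples.

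Among the wt samples, wt 2 was the lowest in 17 of the 43 probe sets, or 39.5%. That share was 9.14% over all probe sets tested and 25.1% over those dim in wt and bright in pri embryos. wt 2 lay at least 2-fold below each of the other 4 wt samples in 5 of the 43. This gap was found in 0.139% of all probe sets tested and 1.2% of those dim in wt and bright in pri embryos. Among the 5 of the 43 were 1635689_at and 1633827_at. A low wt 2 signal lowers the wt mean and so favours membership, and the shares are therefore given without a test. The wt 2 sample also had the highest 3' to 5' ratios of all 15 arrays, at 6.07 for the actin, 3.84 for the GAPDH and 10.3 for the eIF4A control, and the part of this in the results was not tested. Without wt 2 the median difference of the 43 from wt changed from 3.37 to 3.23, and 36 probe sets met the rule.

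Finally, the pri samples were compared among themselves. In 6 of the 43 probe sets the pri 3 sample was at least 2-fold above each of the other 4. These 6, found after their values were seen, were 1636330_at, 1626345_at, 1629914_at, 1635945_at, 1629083_at and 1622893_at. The same gap was found in 0.811% of all probe sets tested and in 4.98% of those dim in wt and bright in pri embryos. No member had such a gap with another pri sample on top. Membership had been decided with the pri mean, which a high pri 3 signal raises, so the shares are given without a test.

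In 1622893_at the pri signals were 64.5, 83.8, 370 (pri 3), 44.3 and 66.5, the widest gap of the 6. In 1629914_at they were 73.1, 109, 288, 20.8 and 51.3, so that pri 3 was 13.9 times pri 4. In 1626345_at they were 109, 130, 375, 110 and 117, with the other 4 samples nearly equal. Across the 6, pri 4 was the lowest pri sample in 5, and the ratio of pri 3 to pri 4 ranged from 3.41 to 13.9. Over all 43, pri 4 was the lowest in 17, or 39.5%. That share was 24.1% over all probe sets tested and 28.9% over those dim in wt and bright in pri embryos. The 6 probe sets had been picked for a high pri 3. Beyond this they shared pri 2 as the next highest sample and pri 4 at or near the bottom.

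The contribution of pri 3 was assessed by leaving it out. The difference from wt changed from 4.82 to 4.37 in 1636330_at and from 3.37 to 3.03 in 1626345_at, which both stayed above 3. It changed to 2.81, 2.84, 2.66 and 2.59 in 1629914_at, 1635945_at, 1629083_at and 1622893_at, which all fell under the limit. An arrangement with pri 1 and pri 4 both above the other 3 pri samples was found in 8 of the 43, or 18.6%, against 20% of all probe sets tested and 22.5% of those dim in wt and bright in pri embryos, a share near the background.

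**Figure D5:**
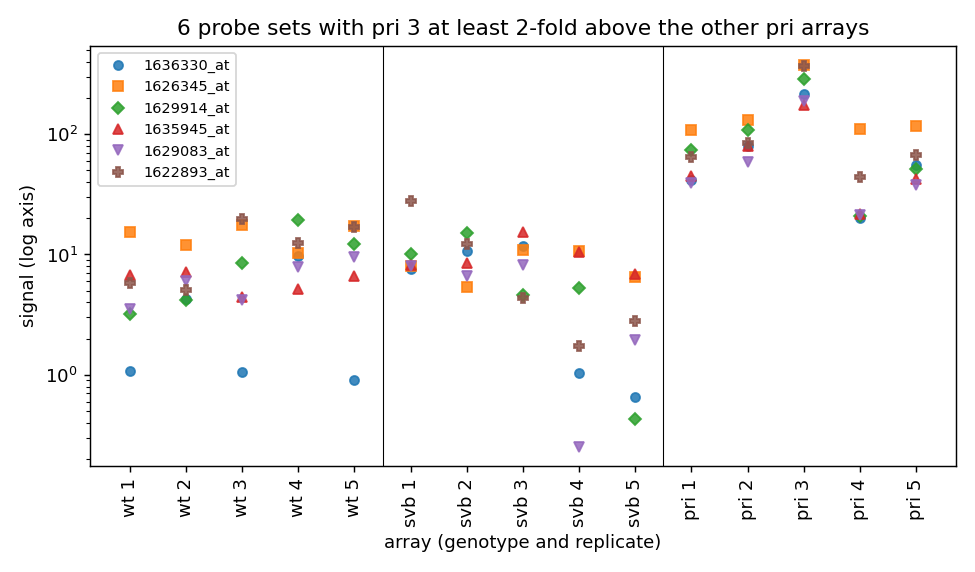
Signal (log axis) of the 6 probe sets in which the pri 3 sample was at least 2-fold above the other 4 pri samples, on each of the 15 arrays in 3 blocks for wt, svb and pri. In each probe set the pri 3 point is the highest of all 15, and pri 4 is the lowest pri point in 5 of the 6.

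Membership itself was followed as each of the 15 arrays was left out in turn. The number of probe sets that met the rule then ranged from 34, without pri 3, to 49, without wt 4. Of the 43, 13 met it in every one of the 15 repeats. They included 1635689_at, 1634789_at, 1624283_at, 1640299_at, 1641174_at and 1633827_at of the 10 largest differences, and 7 of the 13 also met the rule when wt and svb signals under 32 were set to 32. The 4 others of the 10, 1633214_at, 1636330_at, 1627080_at and 1637357_at, left the set in at least 1 repeat.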

How the data were processed

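Total RNA of wt, svb -/- and pri -/- whole embryos was measured on 15 Affymetrix arrays, 5 per genotype, with genotype and replicate number read from each sample's title. The deposited intensities are linear signals that the authors obtained with MAS5 in Affymetrix Expression Console 1.1 and scaled to a trimmed mean of 100 per array (the value found on every array, leaving out 2% on each side). This scaling assumes equal total signal, and dim probe sets get unstable values, down to 0.0198. The deposited table holds 18952 probe sets, of which 183 controls were left out. Neither detection calls nor scanner files entered, and scan batches could not be examined. Precision is limited by the number of arrays. The highest correlation between arrays was 0.966, so that no sample was taken for a repeat of another.

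Signals were transformed to log2 with no offset. The rule was applied to group means of these values with Python 3.11.15, numpy 2.4.6 and pandas 2.3.3, and errors of differences are standard errors over the arrays of both groups. One linear model of the 3 group means was fitted to the 8631 probe sets with a highest group mean of at least 5, using R 4.3.3 and limma 3.58.1 with contrasts between genotypes, a trended eBayes step and Benjamini-Hochberg adjustment at 0.05. The scripts were tested on simulated data with planted changes. The members and lists were chosen with earlier results of these data known. Named are the 10 probe sets with the largest difference of pri from wt and the 3 nearest to the limit on each side. Others are said to be chosen after their values were seen. The lists of tissue markers could not be applied, because the probe sets were not named here. The authors' second table holds signal intensities of the same samples for 149 genes that they had selected for lower signals in both mutants. It was not used for the results, since probe sets raised in pri could not be in it. Alternatives tried were other scalings, an offset, other limits of the rule, other filters, array weights, a replicate block and leaving out arrays.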

Additional observations from a re-analysis of the deposited data

Results flagged for a closer look

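Of 38 sets of 5 samples examined (the 10 probe sets with the largest differences in each genotype, the pri samples of 5 other probe sets with a high pri 3, and the median of the 43 in each genotype), 2 held a sample far from the other 4, where chance gives about 1 in 20. A count of 2 in 38 is near this chance share. The 5 probe sets with a high pri 3 were examined because this had been seen in them, so that the chance share does not apply to them. It does not strictly apply to the others either. The 10 probe sets were taken for their large difference from wt, which a low wt sample raises, and the 43 were chosen by the rule. In 1635689_at the wt 2 sample was the lowest of the wt samples, with a signal of 0.252, and its gap to the next was 0.867 of the whole range on the log2 scale. In 1626345_at the pri 3 sample was the highest of the pri samples, with a signal of 375, and its gap was 0.856 of the range.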

How the results depend on the processing

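The number of probe sets meeting the rule, 43, became 27 when every array was set to the same median and 8 with an offset of 16 added to each signal. It became 26 with a pri mean of at least 6, 83 with a difference of at least 2.5, 18 with one of at least 3.5, and 12 when wt and svb signals under 32 were set to 32, where 11 of the 12 were among the 43. It stayed within 1.5 times of 43 under quantile normalisation (38), a pri mean of at least 4 (54), group medians (36) and no limit on svb (59). Leaving out svb 4 and svb 5 together, which was chosen after seeing the data, gave 29, of which 26 were among the 43. With each of the 15 arrays left out in turn it was 34 to 49. The median difference of the 43 from wt, 3.37, became 3.17 with equal medians, 2.06 with the offset and 1.49 with the level of 32, and was 3.23 to 3.47 with 1 array left out. The offset and the level of 32 both shrink differences of dim probe sets by construction. For the 10 named probe sets, 122 of 140 alternative values stayed within the spread between replicates, 18 moved, all with the offset or the level of 32, and 0 reversed. With the offset their differences ranged from 1.78 to 4.90 and with the level of 32 from 0.53 to 4.94. The limma count of 1576 probe sets higher in pri became 1047 with equal medians and 1345 to 1809 with 1 array left out. It was 1960 with the offset of 16, 1948 with array weights, 1812 with no filter and 1087 with the filter at 6.5. Same-numbered samples were not paired by the labels, and the correlations of their deviations ranged from -0.61 to 0.37, with 8 of 30 sample and group pairs correlating best with their own number. The replicate block gave 1518.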
